A study of Mus musculus with 8 samples.

Results

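The atrial and ventricular myosin light chain genes and sarcolipin were followed as 5 genes, Myl7, Myl4, Sln, Myl2 and Myl3, taken by name from the 49671 genes of the deposited table. They were selected on their deposited values in these libraries, because the atrial transcripts differed strongly between single libraries of a group, so the values are a description and no test was run on them. Left ventricles of male C57BL/6N mice, which entered the study aged 8 weeks, were profiled by sequencing of polyadenylated RNA. The hearts had been under pressure load for 4 weeks through a surgical narrowing of the aorta (transverse aortic constriction, TAC), or the mice had had a sham operation. Diets were SFA, a low fat diet, and SFA-EAA, in which free essential amino acids stood in for 93.5% of the casein. There were 2 libraries in each of the 4 groups, TAC SFA-EAA, TAC SFA, sham SFA-EAA and sham SFA. Whether the libraries within a group are separate animals is not stated, so every error below measures the spread between samples.

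TAC SFA replicate 2 and sham SFA replicate 1 stood apart in the atrial genes, and results are given with and without them. Summed over genes, a library held a signal of 5136441 to 6298743, with 14202 to 15844 genes at a value of 1 or more and 22.1% to 39.5% of the sum in mitochondrial genes.

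Each myosin head carries a regulatory and an essential light chain on its neck, which stiffen the lever arm and tune how fast and how strongly the head works on actin. The adult heart uses a chamber-specific set: Myl7 is the regulatory and Myl4 the essential light chain of the atria, while Myl2 and Myl3 hold those places in the ventricle. Sarcolipin, the product of Sln, is a small membrane peptide of the sarcoplasmic reticulum that binds the calcium pump SERCA and lowers its calcium transport, and in the mouse heart it is an atrial gene. Myl7 and Myl4 are also used in the embryonic heart, and Myl4 can return in stressed adult ventricle in humans.

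All 5 genes lie at the same coordinates in the deposited table and in the GENCODE M21 annotation of GRCm38. Myl7 (ENSMUSG00000020469) is on the minus strand of chromosome 11 from 5896637 to 5898782, with 1 annotated transcript of 7 exons. Myl4 (ENSMUSG00000061086) is on the plus strand of the same chromosome from 104550663 to 104595753, with 8 transcripts. Sln (ENSMUSG00000042045) spans 53850164 to 53854560 of chromosome 9 and has 2 exons. Myl3 (ENSMUSG00000059741) is also on chromosome 9, from 110741861 to 110769798, and Myl2 (ENSMUSG00000013936) is on chromosome 5 from 122100951 to 122113472.

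The coding sequences are shown to let the atrial and ventricular form of each chain be compared. The longest stretch that the coding sequences of Myl7 and Myl2 share without a mismatch has 16 bases, and that of Myl4 and Myl3 has 29 bases. These stretches are shown in capitals with 24 bases on either side, 5′ to 3′ from the principal transcript (GENCODE M21, GRCm38).
Myl7, coding bases 85 to 148: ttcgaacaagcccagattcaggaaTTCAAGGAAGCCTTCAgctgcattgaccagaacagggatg
Myl2, coding bases 61 to 124: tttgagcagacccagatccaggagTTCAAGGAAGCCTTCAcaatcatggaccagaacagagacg
Myl4, coding bases 361 to 437: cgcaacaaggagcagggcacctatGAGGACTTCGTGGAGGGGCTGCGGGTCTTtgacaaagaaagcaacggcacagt
Myl3, coding bases 394 to 470: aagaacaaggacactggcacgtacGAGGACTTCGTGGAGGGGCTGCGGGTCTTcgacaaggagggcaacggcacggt

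Over the whole coding sequence, 61.9% of aligned positions were identical between Myl7 and Myl2, and 73.1% between Myl4 and Myl3. Chains of different kinds were less alike, with 49.0% for Myl7 and Myl4 and 45.7% for Myl2 and Myl3. No longer exact stretch was found between any annotated transcripts of Myl7 and Myl2, or of Myl4 and Myl3. Sln is the shortest of the set, and its whole coding sequence of 96 bases, start and stop codon in capitals, encodes 31 residues.
Sln, coding bases 1 to 96: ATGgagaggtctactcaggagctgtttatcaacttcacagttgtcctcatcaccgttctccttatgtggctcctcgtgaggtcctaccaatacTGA

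Myl7 had deposited values of 3.07 and 1.28 in the TAC SFA-EAA libraries (replicates 1 and 2) and 11.8 and 321.9 in the TAC SFA libraries. It had 43.0 and 2.71 in sham SFA-EAA and 621.3 and 35.8 in sham SFA. Deposited values are the signal that the authors normalized across libraries with edgeR, not scaled to gene length. TAC SFA replicate 2 and sham SFA replicate 1 thus stood 27.2-fold and 17.4-fold above the other library of their own group. The lower of the pair was 7.49-fold above the highest of the other 6 libraries.

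Myl4, the essential chain that pairs with Myl7, had 13.3 and 8.52 in TAC SFA-EAA and 27.9 and 629.1 in TAC SFA. It had 37.0 and 8.71 in sham SFA-EAA and 631.3 and 53.2 in sham SFA. The same 2 libraries were high, 22.5-fold and 11.9-fold above their group mates, and the lower of them was 11.8-fold above the highest of the others. From high to low, the 8 libraries came in the same order for Myl4 as for Myl7, except that sham SFA-EAA replicate 1 and sham SFA replicate 2 changed places.

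Sln was close to the floor of the table in most libraries. It had 1.02 and 0.015 in TAC SFA-EAA, 2.502 and 128.5 in TAC SFA, 0.835 and 0.718 in sham SFA-EAA and 135.1 and 3.11 in sham SFA. The step was the steepest of the 3 atrial genes: TAC SFA replicate 2 was 51.4-fold and sham SFA replicate 1 was 43.5-fold above its group mate. The other 6 libraries spanned 0.015 to 3.11.

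**Figure D1:**
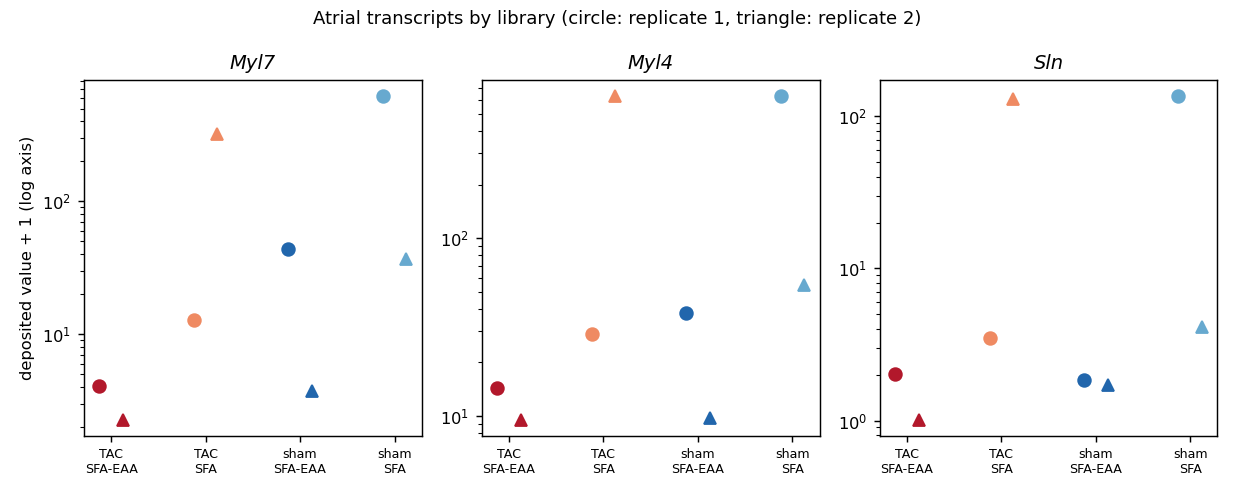
Deposited value + 1 of Myl7, Myl4 and Sln (vertical log axes) in each library of the 4 groups (horizontal axis), circles for replicate 1 and triangles for replicate 2. In every panel TAC SFA replicate 2 and sham SFA replicate 1 stand apart, for Myl7 at 321.9 and 621.3 with no other library above 43.0.

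The 3 atrial genes did not stand in a fixed proportion in these 2 libraries. Between TAC SFA replicate 2 and sham SFA replicate 1 the ratio was 0.518 for Myl7, 0.997 for Myl4 and 0.951 for Sln. Myl7 was thus the lower in the TAC library while Myl4 and Sln were about equal.

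Myl2, the ventricular regulatory chain, was among the most abundant transcripts, ranked 9 to 13 of the genes tested in each library. It had 65971 and 60182 in TAC SFA-EAA and 47484 and 46194 in TAC SFA. It had 60229 and 62470 in sham SFA-EAA and 59413 and 61121 in sham SFA. Both TAC SFA libraries lay below the other 6, which spanned 59413 to 65971, and the libraries of high Myl7 did not stand apart.

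Myl3, the ventricular essential chain, ranked 15 to 22 and varied more. It had 41531 and 20054 in TAC SFA-EAA, 31337 and 27429 in TAC SFA, 22947 and 24830 in sham SFA-EAA and 36535 and 38908 in sham SFA. The lowest 3 libraries were TAC SFA-EAA replicate 2 and both sham SFA-EAA libraries, and the highest was TAC SFA-EAA replicate 1, so the spread within TAC SFA-EAA exceeded every difference between group means. Those 3 low libraries were also the ones in which a gene's deviation from its mean fell with GC content (Spearman rho -0.66, -0.56 and -0.38 over 12402 genes, which are not independent), against 0.30 to 0.45 in the other 5. Myl3 has a GC content of 51.5%, higher than 60.2% of the genes tested, and Myl2 one of 50.3%. After removal of the GC trend the log2 difference of Myl3 in sham SFA-EAA from sham SFA was -0.56, against -0.66 as deposited. The part of the GC trend in the Myl3 values was not tested.

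Per length of the principal transcript, Myl2 was 1.60 to 1.78 times as abundant as Myl3 in 5 libraries. The ratio was 3.16 in TAC SFA-EAA replicate 2, and 2.77 and 2.65 in the sham SFA-EAA libraries. The ventricular pair therefore did not keep 1 ratio across libraries, and the ratio followed Myl3 rather than Myl2.

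**Figure D2:**
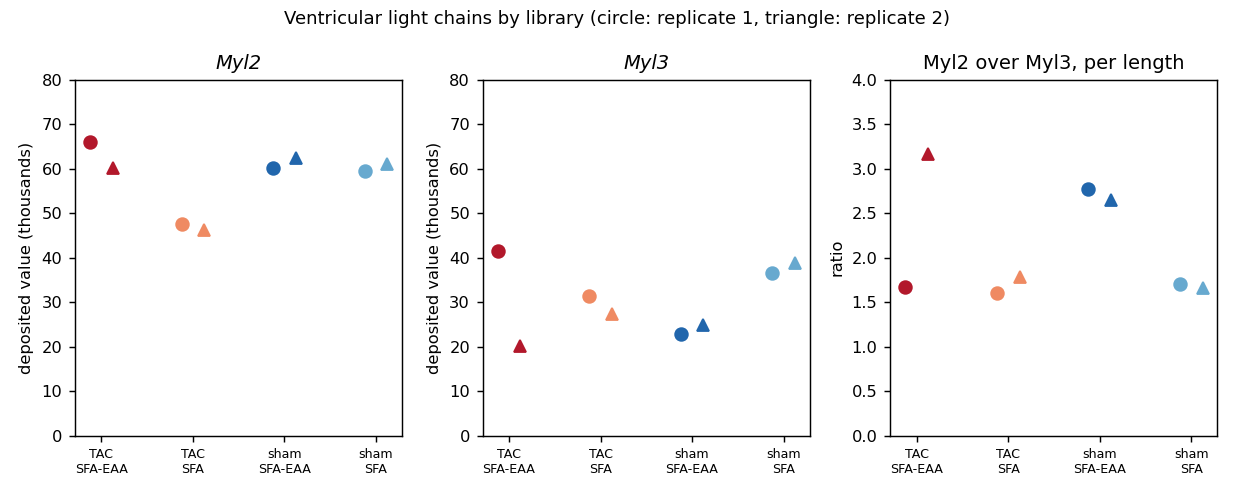
Deposited values of Myl2 and Myl3 and the ratio of the 2 genes per length of the principal transcript (vertical axes from 0) in each library of the 4 groups (horizontal axis). Myl2 is lowest in the TAC SFA libraries at 47484 and 46194, and the ratio is above 2.6 in 3 SFA-EAA libraries.

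Levels of different genes were compared per kilobase of the principal transcript. In the median library Myl2 stood at 67722 and Myl3 at 31358 per kilobase, against 40.4 for Myl7, 34.4 for Myl4 and 1.34 for Sln. Myl7 and Myl4 cannot be ordered firmly: Myl7 was the higher in both sham SFA libraries, with 1053 against 669 in replicate 1, and in sham SFA-EAA replicate 1, and Myl4 was the higher in the other 5 libraries, with 667 against 546 in TAC SFA replicate 2. With the longer exon length of 4637 bases that the table lists for Myl4, its median was 6.995 per kilobase and Myl7 was the higher in all 8 libraries. Sln was the lowest of the 5 in all 8 libraries on either length.

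As a share of the regulatory pair per length, Myl7 made up 1.04% in TAC SFA replicate 2 and 1.55% in sham SFA replicate 1, and 0.0032% to 0.107% in the other 6 libraries. Myl4 made up 2.23% and 1.69% of the essential pair in the same 2 libraries, and 0.0318% to 0.16% in the others. The ventricular form thus made up nearly all of either pair in every library. With the deposited exon lengths the shares were 2.25% and 3.34% for Myl7 and 1% and 0.756% for Myl4. In bulk RNA, a difference in the number of cells of a type and a difference in RNA per cell cannot be told apart.

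**Figure D3:**
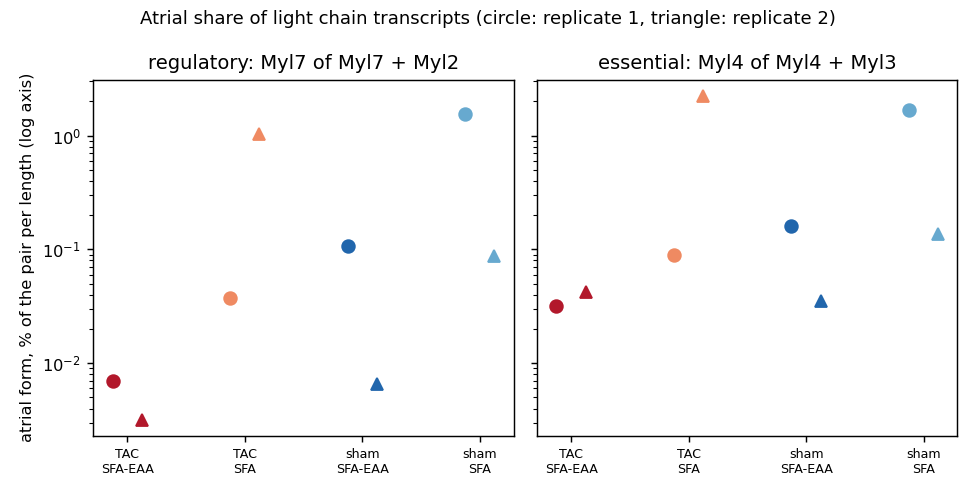
Atrial form as a percentage of the atrial and ventricular light chain pair, per length of the principal transcript (vertical log axis), in each library of the 4 groups (horizontal axis). TAC SFA replicate 2 and sham SFA replicate 1 are the only libraries above 1% in either panel.

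Few other genes shared the step. Of 16432 genes tested, 6 (0.0365%) were at least 4 times as high in TAC SFA replicate 2 and in sham SFA replicate 1 as in the highest other library, on the value + 1 scale. Myl7, Myl4 and Sln account for 3 of the 6, by the choice of the genes. Mybphl, a myosin-binding protein gene of the atria and conduction system in the mouse, had 1.04 and 6.80 in TAC SFA-EAA, 0 and 65.8 in TAC SFA, 7.65 and 2.86 in sham SFA-EAA and 77.3 and 3.23 in sham SFA. The other 2 were low genes: Clec3a, a lectin gene of cartilage, had 9.33 in TAC SFA replicate 2 and 3.62 in sham SFA replicate 1 and was listed at 0 elsewhere, and Rab33a, a small GTPase gene, had 4.09 and 3.62 there and was listed at 0 elsewhere. Just outside that limit was Dkk3, a secreted Wnt modulator gene, at 3.42-fold. Dkk3 stood at 375.7 and 176.0 in these libraries and at 10.7 to 50.8 in the remaining 6.

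Over the 8 libraries, on log2(value + 1), Myl4 was the gene most like Myl7 of 11780 compared (Pearson r 0.98). All these correlations are descriptions over 8 points that share their libraries. Next came Slc22a17 (0.95), a transporter-like receptor gene, at 15.3 in TAC SFA replicate 2 and 15.9 in sham SFA replicate 1 against 3.599 to 8.50 elsewhere, then Maged2 and Ptpdc1 (both 0.93), Senp3 and Man2a2 (both 0.93), Gas1, Tmem131, Chad and Prkar1b (all 0.92). Most of these moved little: Senp3, a SUMO protease gene, spanned 154 to 191. Chad, which encodes a cartilage leucine-rich protein, had the widest relative range of these 9, with 72.5 in TAC SFA replicate 2 and 20.6 in sham SFA replicate 1 against at most 8.34 elsewhere. The 5 most like Myl4 were Myl7, Sln, Man2a2, Slc22a17 and Adamts15, and the 5 most like Sln were Myl4, Arhgap35, Adamts15, Mras and Ache (r 0.94 to 0.97). Myl2 was most like Dap3, Ybey, Tek, Pm20d1 and Slc46a3 (r 0.96 to 0.98), and Myl3 most like Snx11, Ckm, P4htm, Hist1h2bc and Mtx1 (r 0.97 to 0.99). Ckm, the muscle creatine kinase gene, had 4541 in TAC SFA-EAA replicate 2, the library where Myl3 was lowest, and 13220 in TAC SFA-EAA replicate 1, where Myl3 was highest.

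Most genes of a list of 18 atrial genes did not follow Myl7. Of the 17 tested, Mybphl, Dkk3 and Gja5 had their 2 highest values in these libraries, and for Gja5, a connexin gene of atria and conduction tissue, these were 49.9 in TAC SFA replicate 2 and 69.4 in sham SFA replicate 1 against 23.2 to 49.7 elsewhere. Bmp10, a growth factor gene of the right atrium, was listed at 0 in all 8 libraries. Nppa, the gene of atrial natriuretic peptide, had 4437 and 3343 in TAC SFA-EAA, 10346 and 20406 in TAC SFA, 1025 and 1046 in sham SFA-EAA and 1300 and 1013 in sham SFA. All 4 TAC libraries lay above all 4 sham libraries. Within the SFA groups the libraries of high Myl7 held the higher value, 1.97-fold the group mate in TAC SFA and 1.28-fold in sham SFA. Myl7 stood at 27.2-fold and 17.4-fold there. These folds start from unlike levels, as Myl7 was at 1.28 to 43.0 elsewhere and Nppa at 1013 or more. Kcnj3, an inward rectifier potassium channel gene, had 160.4 and 138.9 in TAC SFA and 417.8 and 384.5 in sham SFA. For TAC SFA against sham SFA, 1 of the 17 was called higher, Nppa (12.7-fold, limma adjusted p = 0.00228), and 1 lower, Kcnj3 (log2 difference -1.42, SE 0.15, limma adjusted p = 0.00438), where 0.834% of all 16432 genes were called higher and 0.414% lower. The median log2 difference of the 17 was -0.48, against 0.01 over all genes. None was called in the other comparisons, where at most 0.0487% of all genes were. Of 8 ventricular genes tested, 1 was called lower, Kcnip2, a potassium channel subunit gene (log2 difference -0.74, limma adjusted p = 0.0307), with a list median of -0.35. Kcnip2 did not pass with the replicate block (limma adjusted p = 0.0693), with no filter on low values (0.0603), or without TAC SFA replicate 1 (0.136) or either sham SFA-EAA library (0.074 and 0.0735). None of the calls of Nppa, Kcnj3 and Kcnip2 held without sham SFA replicate 2 (log2 differences 3.48, -1.48 and -0.68). Those of Kcnj3 and Kcnip2 also failed without TAC SFA replicate 2 (-1.32 and -0.73) or without sham SFA replicate 1 (-1.36 and -0.79). Such fits leave 1 library in a group and called few genes of any kind, so these losses do not single out the genes named.

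**Figure D4:**
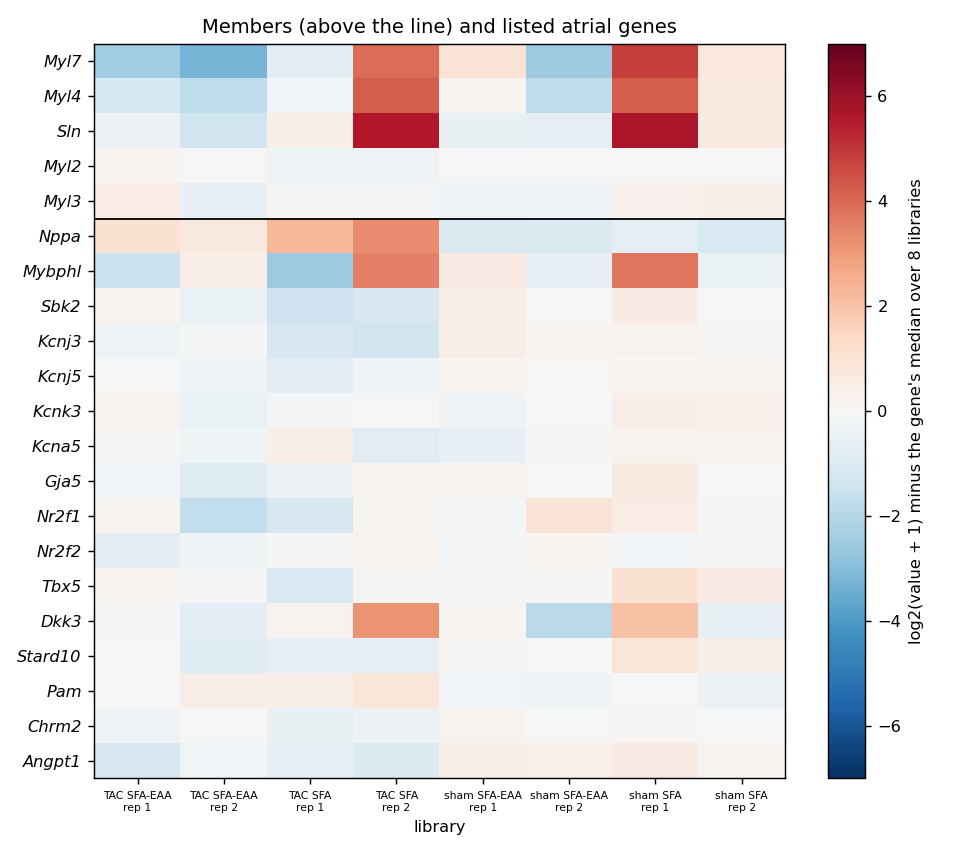
Log2(value + 1) minus the gene's median over 8 libraries (colour) for the 5 genes followed, above the line, and the listed atrial genes that reach a value of 5 in any library (rows), in each library (columns). Mybphl and Dkk3 share the red of Myl7, Myl4 and Sln in TAC SFA replicate 2 and sham SFA replicate 1.

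The tissue label was checked against markers. The ventricular transcription factor gene Irx4 was present in all 8 libraries (72.6 to 175.1), as were 7 more of the 9 listed ventricular genes. Hand1, a left ventricular transcription factor gene of the embryo, was listed at 0 in 6 libraries and at most at 0.0346. The sum of 7 sinoatrial and conduction genes was 80.8 to 203.7 in TAC SFA-EAA, 192.7 to 235.7 in TAC SFA, 178.1 to 190.2 in sham SFA-EAA and 198.2 to 340.4 in sham SFA, highest in sham SFA replicate 1, with the defining gene Isl1 at 0 in all 8. The sum of 4 adipocyte genes was 26.3 in TAC SFA replicate 2, 54.6 in sham SFA replicate 1, 25.0 in sham SFA-EAA replicate 2 and 1.0 to 9.7 in the other 5. The sum of 6 epicardial and mesothelial genes was highest in TAC SFA replicate 2, at 109.4, and was 12.4 to 59.1 elsewhere. All 5 lung genes were at 0 in every library, as were 5 of 10 skeletal muscle genes, Myh1, Myh2, Myh4, Myod1 and Myog, and the skeletal list summed to 3.8 to 10.7. No gene of these 5 lists or of the smooth muscle and blood lists was called in any comparison. Of all genes tested, 0% to 1.25% were called in a comparison. The part of other cell types in the light chain and Sln values was not tested.

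TAC was set against sham under each diet to ask what pressure overload did to these genes. Under SFA, Myl7 averaged 166.9 ± 219 in TAC and 328.5 ± 414 in sham (SD, n = 2 each), Myl4 328.5 ± 425 and 342.3 ± 409, and Sln 65.5 ± 89.1 and 69.1 ± 93.4. Each SD exceeded its mean, and the libraries overlapped. The log2 differences were -1.23 (SE 1.71), -0.46 (SE 1.44) and -0.15 (SE 1.77) on the log2(value + 1) scale. Their direction hung on single libraries: without sham SFA replicate 1 all 3 were positive (0.81, 1.31 and 2.38), and without TAC SFA replicate 2 all were negative (-3.56, -2.68 and -2.75). Without both of these libraries, 1 library a group was left and the differences were -1.52, -0.91 and -0.23.

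The ventricular chains were lower in TAC under SFA. Myl2 averaged 46839 ± 912 in TAC and 60267 ± 1207 in sham (SD, n = 2 each), a log2 difference of -0.36 (SE 0.18), and Myl3 29383 ± 2763 and 37721 ± 1678, a log2 difference of -0.36 (SE 0.29). The libraries of the groups did not overlap for either gene, as was so for 23.1% of all genes tested in this direction. The TAC SFA libraries also had the lowest sums of deposited values of the 8 (5430107 and 5136441, against 5739729 and 5956103 in sham SFA) and the lowest mitochondrial shares (27.7% and 22.1%, against 29.2% and 30.3% in sham SFA), and the part of these in the result was not tested. Without both libraries of high Myl7 the differences were -0.36 and -0.31. That of Myl2 was -0.376 with median-of-ratios scaling and -0.42 with the GC trend removed. With quantile normalization, which fixes the values of the top ranks, it was 0.01. Myl2 ranked 12 in both TAC SFA libraries and 11 and 13 in sham SFA, so that fit cannot decide its direction.

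Under SFA-EAA, Myl7 averaged 2.17 ± 1.27 in TAC and 22.9 ± 28.5 in sham (SD, n = 2 each), with a log2 difference of -2.07 (SE 1.71). Myl4 averaged 10.9 ± 3.38 and 22.8 ± 19.98, and Sln 0.517 ± 0.711 and 0.776 ± 0.0827, so both Sln groups lay near the floor. Without sham SFA-EAA replicate 1 the log2 difference was -0.29 for Myl7 and 0.26 for Myl4, where it was -0.72 with all libraries. Myl2 averaged 63076 ± 4093 in TAC and 61349 ± 1585 in sham, a log2 difference of 0.04 (SE 0.18), and Myl3 30792 ± 15186 and 23888 ± 1331, a log2 difference of 0.27 (SE 0.29). None of the 5 genes had groups without overlap here, against 18.5% of all genes tested higher and 18% lower. The TAC effect of SFA-EAA minus that of SFA was 0.40 (SE 0.25) for Myl2 and 0.64 (SE 0.42) for Myl3 on the log2 scale.

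SFA-EAA was set against SFA after either operation to ask what the amino acid diet changed. After TAC, Myl7 averaged 2.17 ± 1.27 on SFA-EAA and 166.9 ± 219 on SFA (SD, n = 2 each), a log2 difference of -4.40 (SE 1.71). For Myl4 and Sln the log2 differences were -3.53 (SE 1.44) and -3.90 (SE 1.77). All 3 were lower without overlap, as were 21.1% of all genes tested, and Myl2 was higher without overlap, as were 21.7%, with a log2 difference of 0.43 (SE 0.18). Myl3 averaged 30792 ± 15186 and 29383 ± 2763, a log2 difference of -0.02. Leaving out TAC SFA replicate 2 moved the atrial differences to -2.08, -1.31 and -1.29.

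In sham hearts Myl7 averaged 22.9 ± 28.5 on SFA-EAA and 328.5 ± 414 on SFA (SD, n = 2 each), a log2 difference of -3.57 (SE 1.71), with overlap of the libraries. Myl4 and Sln did not overlap, with log2 differences of -3.27 (SE 1.44) and -3.74 (SE 1.77). Myl3 was also lower without overlap, at -0.66 (SE 0.29), as were 27.6% of all genes tested, while Myl2 differed by 0.03 (SE 0.18). Without sham SFA replicate 1 the atrial differences were -1.53, -1.50 and -1.21. The comparisons of TAC with sham and of SFA-EAA with SFA share libraries, so their values are not independent.

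**Figure D5:**
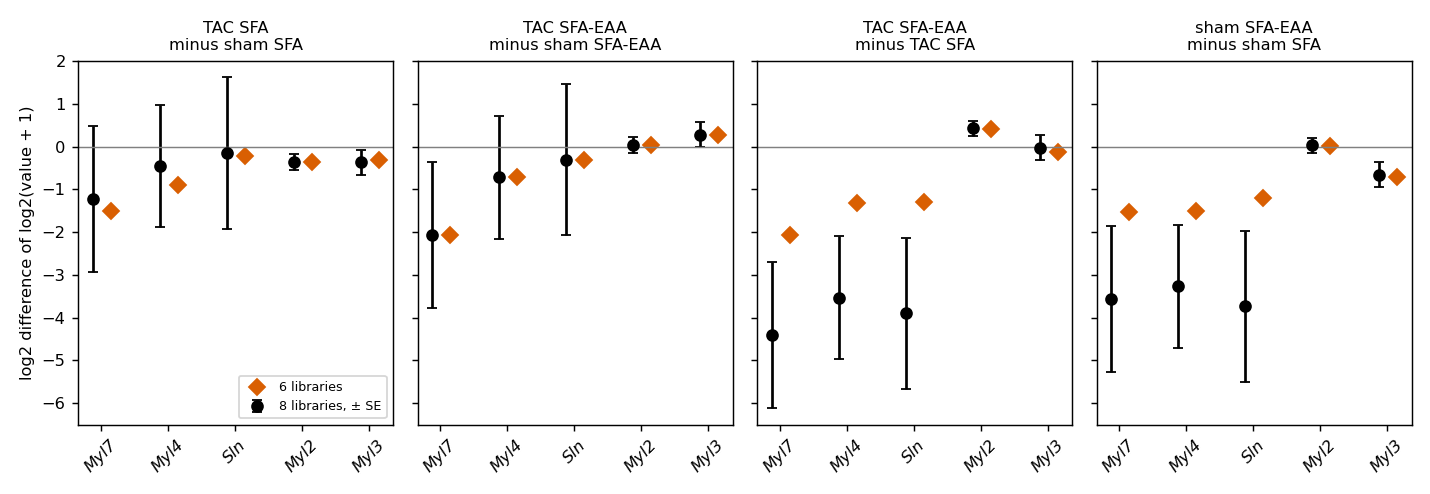
Log2 difference of the first minus the second group on log2(value + 1) (vertical axis) for the 5 genes (horizontal axis) in 4 comparisons, black points with SE from 8 libraries and orange diamonds without TAC SFA replicate 2 and sham SFA replicate 1. Under SFA-EAA against SFA the atrial differences shrink to between -2.08 and -1.21 without these 2 libraries, while those of Myl2 and Myl3 move by at most 0.10.

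Of the other myosin light chains, 7 of 9 listed genes were tested. Under SFA, 1 rose with TAC and 0 fell, where 1.25% of all genes were called in either direction (limma adjusted p under 0.05 across 16432 genes), and the median log2 difference of the list was 0.23 against 0.01 over all genes. The called gene was Myl12a, a regulatory chain of non-muscle myosin, with 5252 and 5022 in TAC and 3243 and 3420 in sham. It was 1.54-fold higher, with no overlap (log2 difference 0.62, SE 0.12, limma adjusted p = 0.0492, just under the threshold). It did not pass in 11 of 16 alternative fits, among them those without any 1 of the 4 SFA libraries or either sham SFA-EAA library. Fits with 1 library left in an SFA group called few genes of any kind. Myl1, the fast skeletal essential chain, had 320.6 and 321.4 in TAC and 191.1 and 101.2 in sham, 2.30-fold higher, and did not pass (limma adjusted p = 0.072). Myl9, a smooth muscle regulatory chain, had 57.5 and 45.3 in TAC SFA-EAA and 91.8 and 234.3 in TAC SFA (limma adjusted p = 0.163). In the other comparisons none of the 7 passed, where 0.0122% of all genes were called for TAC SFA-EAA against sham SFA-EAA, 0.0487% for TAC SFA-EAA against TAC SFA, and 0% for sham SFA-EAA against sham SFA and for the difference of the TAC effects. At an unadjusted p under 0.05 these last 2 comparisons held 2437 and 902 genes.

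Among the heavy chains that carry these light chains, Myh7, the slow beta-myosin of the fetal and stressed ventricle, had 10894 and 20121 in TAC SFA and 569.5 and 1143 in sham SFA (18.3-fold higher, limma adjusted p = 0.00438). The call was lost without TAC SFA replicate 2 (log2 difference 3.75, against 4.20 with all libraries) and without sham SFA replicate 1 (3.69) or 2 (4.70). Few genes of any kind were called in these fits, which leave 1 library in a group. The library of high Myl7 held the higher value in TAC and the lower in sham. Myh6, the alpha-myosin of the adult mouse heart, averaged 91136 in TAC SFA and 106812 in sham SFA and did not pass (limma adjusted p = 0.836). None of 9 genes of light chain kinases and the myosin phosphatase passed in any of the 5 comparisons. The share of all genes that passed was 0% to 1.25%. Mylk3, the cardiac kinase that phosphorylates the ventricular regulatory chain, spanned 2422 to 3179 over the 8 libraries. Mylk4, a related muscle kinase, had 749.7 and 473.8 in TAC SFA and 1227 and 1029 in sham SFA, with a log2 difference of -0.91 (SE 0.25, limma adjusted p = 0.14).

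Around sarcolipin, 6 of 11 listed symbols of calcium pumps and their small peptide partners were found in the table. None of the 6 passed in any of the 5 comparisons, where 0% to 1.25% of all genes passed. Atp2a2, the cardiac calcium pump SERCA2, had 56123 and 52431 in TAC SFA and 81151 and 75722 in sham SFA, with a log2 difference of -0.53 (SE 0.19, limma adjusted p = 0.255). Pln, phospholamban, the ventricular inhibitor of the same pump, had 24092 and 22839 in TAC SFA and 31026 and 32382 in sham SFA (log2 difference -0.43, SE 0.17, limma adjusted p = 0.297). Neither gene stood apart in the 2 libraries of high Sln.

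The RefSeq promoter table (GRCm38.p6) holds a window within 100 bases of the principal start for Myl7 and Myl3, an atrial and a ventricular light chain with unlike values here. The 250 bases before each start are shown 5′ to 3′ on the gene's strand, with the CArG box, the binding motif of serum response factor, in capitals.
Myl7, chr11:5898783-5899032, minus strand: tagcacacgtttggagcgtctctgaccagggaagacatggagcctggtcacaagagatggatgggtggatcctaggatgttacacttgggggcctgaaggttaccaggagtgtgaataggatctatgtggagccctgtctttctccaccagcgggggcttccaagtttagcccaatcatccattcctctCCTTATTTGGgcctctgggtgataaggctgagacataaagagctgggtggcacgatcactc
Myl3, chr9:110763428-110763677, plus strand: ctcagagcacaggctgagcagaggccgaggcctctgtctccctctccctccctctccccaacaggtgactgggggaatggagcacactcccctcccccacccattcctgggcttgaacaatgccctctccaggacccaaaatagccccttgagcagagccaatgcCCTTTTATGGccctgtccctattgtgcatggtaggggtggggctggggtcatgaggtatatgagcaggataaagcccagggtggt

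The CArG box lies 61 to 52 bases before the Myl7 start and 85 to 76 bases before the Myl3 start. Of 32851 upstream windows of the same length, 1.47% hold a CArG box on either strand. Each of the 2 windows also holds GATAA, the core read by GATA factors, as do 22.6% of all windows. Neither holds the MEF2 site (0.51% of windows), TATAAA (12.4%) or AGGTGT, a T-box half-site (11.8%), and none of the matches overlap. The windows of Myl4 and Myl2 in that table lie at other annotated starts, 7794 to 26322 bases from the principal one, and are not shown.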

How the data were processed

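A stranded mRNA kit and a NextSeq instrument were used, per the labels' protocols. STAR 2.5, GRCm38 and edgeR are named, per the submitters' processing notes, and the read counter and annotation release are not known from the labels. The deposited table holds 1 normalized signal per gene and library, summing to 5136441 to 6298743. Values between 0.5 and 1.5 took 77 to 109 distinct values per library, so they are not whole reads times 1 factor, and the depth in reads is unknown. The table also holds the authors' gene length.

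Limma-trend (limma 3.58.1, R 4.3.3) was fitted to log2(value + 1) for 16432 genes (those reaching 1 in 2 or more libraries), as 4 group means sharing their spread, two-sided, with Benjamini-Hochberg adjustment per comparison at 0.05. All 5 members passed the filter. The fit was tested on simulated data for TAC SFA against sham SFA, with 50 changed genes at each fold. It recovered 3 of 50 at 1.5-fold, 20 at 2-fold, 37 at 4-fold and 47 at 8-fold, with 4 false calls. A gene that did not pass may therefore still have changed. The fit missed most changes of 2-fold or less and also some of 4-fold and 8-fold. The values of 1 listed atrial gene are not reported here. The members, gene lists and rules for named genes were chosen with earlier results of these data known. Genes named are the 5 members, called or lowest-p genes of each list, the 10 (Myl7) or 5 genes of highest Pearson correlation with a mean of at least 5, and those with a 4-fold step. Alternatives changed the pseudocount (0.25), the filter, the scaling (median of ratios, quantile) or added a replicate block, and others were removal of each library's GC trend (loess, span 0.3), and leaving out libraries. Figures were drawn with Python 3.11.15 and matplotlib 3.10.9. Coding sequences and lengths came from GENCODE M21, in which 91.5% of 49326 matched genes had the deposited coordinates.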

Additional observations from a re-analysis of the deposited data

Results flagged for a closer look

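Nr2f2 and Lbh, genes of the atrial and the ventricular list, had all TAC libraries on opposite sides of the sham libraries under the 2 diets. Groups without overlap were common. Under SFA 24.3% of all genes tested were higher and 23.1% lower without overlap, and under SFA-EAA 18.5% and 18%. How many of all genes lay on opposite sides under the 2 diets was not counted. Nr2f2, a transcription factor gene, had 20.6 and 28.8 in TAC SFA-EAA and 34.04 and 39.9 in sham SFA-EAA, but 37.9 and 42.4 in TAC SFA and 30.7 and 37.6 in sham SFA. Under SFA the nearest libraries of Nr2f2 differed little, at 37.92 in TAC and 37.59 in sham. The TAC effect of SFA-EAA minus that of SFA was -0.81 for Nr2f2 on the log2 scale (limma adjusted p = 0.878). Lbh, a transcriptional cofactor gene, averaged 3390 in TAC SFA-EAA and 2597 in sham SFA-EAA, and 2947 in TAC SFA and 3745 in sham SFA, a difference of effects of 0.73 (limma adjusted p = 0.75). Neither difference passed the test.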

How the results depend on the processing

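Log2 differences without single libraries were as follows. For TAC SFA against sham SFA they spanned -3.56 to 1.09 for Myl7, -2.68 to 1.77 for Myl4 and -2.75 to 2.45 for Sln. For TAC SFA-EAA against sham SFA-EAA they spanned -0.027 to 0.105 for Myl2 and -0.25 to 0.80 for Myl3. For TAC SFA-EAA against TAC SFA they spanned -5.75 to -1.31 for Myl4, -6.50 to -1.29 for Sln, 0.36 to 0.49 for Myl2 and -0.55 to 0.50 for Myl3. For the difference of the TAC effects they spanned -2.49 to 1.96 for Myl4, -2.76 to 2.44 for Sln, 0.34 to 0.47 for Myl2 and 0.11 to 1.16 for Myl3. A lone library left in a group is assumed to vary like the other groups.

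Without both libraries of high Myl7, the TAC SFA-EAA against TAC SFA differences were -1.31 for Myl4 and -1.29 for Sln. Quantile normalization gave Myl2 differences of 0.013 for TAC SFA against sham SFA, 0.13 for TAC SFA-EAA against sham SFA-EAA, 0.11 for sham SFA-EAA against sham SFA, 0.23 for TAC SFA-EAA against TAC SFA and 0.12 for the difference of effects. Removing the GC trend gave Myl2 differences of -0.42 for TAC SFA against sham SFA and 0.50 for TAC SFA-EAA against TAC SFA. The cause was not tested.

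Genes called for TAC SFA against sham SFA numbered 205 (137 higher, 68 lower), 322 with a filter of 5 in 2 libraries, 96 with the replicate block, 888 with the GC trend removed (366 higher, 522 lower), 0 without both libraries of high Myl7 and 0 to 385 without single libraries. For TAC SFA-EAA against sham SFA-EAA, 2 became 0 with a pseudocount of 0.25, with no filter, with quantile normalization, with the replicate block, without both libraries and without any single one, 5 with the stricter filter and 32 with the GC trend removed. For TAC SFA-EAA against TAC SFA, 8 became 0 with a pseudocount of 0.25, with no filter, with the replicate block and without both libraries, 81 with the stricter filter, 15 with median-of-ratios scaling, 330 with the GC trend removed (211 higher and 119 lower, against 2 and 6) and 0 to 1395 without single libraries. For sham SFA-EAA against sham SFA, 0 became 3 with the GC trend removed and 0 to 466 without single libraries. With Spearman in place of Pearson correlation, 4 of the 10 genes most like Myl7 were shared, 1 of 5 for Myl4, 0 of 5 for Sln, 0 of 5 for Myl2 and 1 of 5 for Myl3. The count of 6 genes with the step of Myl7 lay between 4 and 9 under 6 alternatives, which were added once the values were known.

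The replicate numbers share only a number: deviations of equally numbered libraries correlated between -0.18 and 0.02 across groups (12420 genes). With 1 library of each number in every group, a replicate block cannot move a group difference, only its error, and it brought the calls for TAC SFA against sham SFA to 96.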
